A study of Homo sapiens with 6 samples.

Results

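The genes described here are 10 human genes of selective autophagy in U87MG glioblastoma cells: the cargo receptor genes SQSTM1, NBR1, OPTN, TAX1BP1 and CALCOCO2, the ATG8 family genes MAP1LC3B, GABARAP, GABARAPL1 and GABARAPL2, and WIPI1. They are 10 of the 17687 genes that had a probe set with a single gene symbol, and each is read from the probe set of its symbol with the highest mean over all 6 arrays. Each of the 10 had 1 such probe set, and each lay above the negative control probe sets in both groups. The genes were chosen by their log2 levels and their difference between P-bi-TAT and untreated cells on these same arrays. That difference is therefore given as a description, without a test.

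U87MG is an established human glioblastoma line, and P-bi-TAT is a synthetic molecule that carries a pair of tetrac groups, a thyroid hormone derivative that binds an integrin at the cell surface. The treated cells were grown with P-bi-TAT at 30 µM over 24 h, and the untreated cells received phosphate-buffered saline for the same 24 h. Both groups had been kept in low-serum medium beforehand, as the methods describe. RNA of each group was hybridized to 3 Clariom S arrays, which hold probe sets for human transcripts, and the values are log2 signals of RNA, so they do not measure protein, lipidation of LC3 or autophagic flux. The labels do not say whether the 3 samples of a group came from separate cultures. Every p-value rests on the spread between these samples, which the limma fit below draws toward that of all gene probe sets. It may not measure a spread between cultures.

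In autophagy a double membrane closes around cargo and delivers it to the lysosome for breakdown. Small ubiquitin-like proteins of the ATG8 family, LC3 and GABARAP, are bound to lipid on the growing membrane, and selective receptors hold ubiquitinated cargo with one end and an ATG8 protein with the other through a short LC3-interacting motif. The receptor protein p62, made by SQSTM1, is itself degraded with its cargo, and its gene is a known target of the oxidative stress factor NRF2, which p62 in turn activates by binding KEAP1. In glioblastoma autophagy is studied both as a survival route and as a route of death after treatment.

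RefSeq promoters of the assembly GRCh38.p14 were read for the 10 genes, 15 promoters in all, over the 250 bases before each gene start. Windows of 4 genes are printed 5′ to 3′ on the strand of the gene, because SQSTM1 had the highest difference of the 10 below and because the other 3 genes held a match to a searched motif. Capitals mark a match to one of the searched motifs.
SQSTM1, chr5:179820655-179820904, + strand: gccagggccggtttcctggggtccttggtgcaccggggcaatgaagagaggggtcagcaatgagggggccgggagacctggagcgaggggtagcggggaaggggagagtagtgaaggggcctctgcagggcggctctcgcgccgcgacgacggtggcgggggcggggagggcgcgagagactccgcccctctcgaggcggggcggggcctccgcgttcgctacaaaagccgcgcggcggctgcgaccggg
GABARAPL1, chr12:10212627-10212876, + strand: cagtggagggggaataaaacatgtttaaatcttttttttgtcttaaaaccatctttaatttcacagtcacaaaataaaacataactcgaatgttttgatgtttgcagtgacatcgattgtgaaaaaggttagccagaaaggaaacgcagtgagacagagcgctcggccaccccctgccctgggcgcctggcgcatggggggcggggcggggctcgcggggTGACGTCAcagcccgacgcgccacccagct
MAP1LC3B, chr16:87392086-87392335, + strand: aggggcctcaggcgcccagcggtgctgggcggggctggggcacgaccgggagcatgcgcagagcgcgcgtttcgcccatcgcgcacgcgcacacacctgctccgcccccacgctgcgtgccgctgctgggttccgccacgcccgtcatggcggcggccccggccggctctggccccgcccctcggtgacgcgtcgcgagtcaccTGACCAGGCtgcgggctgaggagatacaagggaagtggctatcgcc
CALCOCO2, chr17:48830785-48831034, + strand: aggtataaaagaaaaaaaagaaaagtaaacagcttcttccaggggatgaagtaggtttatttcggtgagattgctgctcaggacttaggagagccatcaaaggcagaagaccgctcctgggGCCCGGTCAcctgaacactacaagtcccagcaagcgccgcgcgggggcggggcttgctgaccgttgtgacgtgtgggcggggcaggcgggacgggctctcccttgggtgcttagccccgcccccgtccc

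The motifs were searched on both strands. CACGTG, the E-box core read by TFEB and its relatives, was in 0 of the 15 promoters and in 7.26% of all 35116 RefSeq promoters of the same length. The longer palindrome TCACGTGA, which contains it, was in 0 of the 15 and in 0.98% of all. TGACNNNGC, the core of the antioxidant response element read by NRF2, was in 2 of the 15, MAP1LC3B at 46 bases and CALCOCO2 at 129 bases before the gene start, and in 13.3% of all. TGACGTCA, the cyclic AMP response element, was added after the sequences had been read: it was in 1 of the 15, GABARAPL1 at 30 bases before the start, and in 1.85% of all. The printed SQSTM1 window, the last of its 3 RefSeq starts along the chromosome, held none of the 4. A match describes letters only, and no match says only that these letters are not in this window.

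The array of P-bi-TAT replicate 1 differed from the other 5, so the differences below are given with and without it. The median over all gene probe sets was 3.52, 4.73 and 4.76 in P-bi-TAT replicates 1 to 3 and 4.85 in each untreated array. Replicate 1 held 3368 distinct values among its gene probe sets, against 20841 to 21029 in the other arrays. Its correlation with the others was 0.864 to 0.909, against 0.987 between P-bi-TAT replicates 2 and 3 and 0.923 to 0.953 among the untreated arrays. The shortfall of replicate 1 depended on level: its median difference from the untreated mean was -0.39 for genes with an untreated mean below 4 and -2.69 for genes between 8 and 10. Replicates 2 and 3 depended on level as well: their medians were -0.26 and -0.24 for genes below 4, and 0.30 to 0.42 for genes in the bins from 6 upward, where all 10 genes described here lie. The groups also differed in their controls, with negative control medians of 3.21 and 3.27 in P-bi-TAT replicates 2 and 3 and 3.67 to 3.98 in untreated arrays, and the spike-in medians lay between 10.34 and 10.79 with P-bi-TAT, against 12.04 to 12.53 in the untreated arrays. The part of these array differences in the gene differences below was not tested.

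Of 5 measured markers of mesenchymal glioma, 4 (VIM, CD44, TNC and FN1) were above the negative controls in both groups and CHI3L1 was in neither. VIM lay between 14.49 and 16.65 in P-bi-TAT arrays and between 14.92 and 15.45 in untreated arrays, and FN1 between 3.74 and 6.14 in P-bi-TAT arrays and between 4.50 and 5.59 in untreated arrays. The astrocyte markers AQP4, GFAP, SLC1A2 and ALDH1L1 ranged from 2.58 to 4.89 in P-bi-TAT cells and 2.94 to 5.95 in untreated cells. Of these 4, 3 were above the negative controls in both groups, as were 3 of 4 neuron markers. The neuron marker SNAP25 had group means of 4.71 with P-bi-TAT and 5.31 untreated, against 5.21 and 5.19 for FN1. Above the controls were 2 of 4 myeloid and 1 of 3 endothelial markers in untreated cells, and 1 and 2 in P-bi-TAT cells. The group means of the 3 epithelial markers lay below the negative controls in both groups. In bulk RNA, fewer cells and less RNA per cell cannot be told apart.

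Among the receptors, SQSTM1 stood out. Its log2 values were 12.85, 15.03 and 14.79 in P-bi-TAT cells, against 12.55, 12.46 and 12.06 in untreated cells. Every P-bi-TAT array lay above every untreated array, and SQSTM1 was the 1 gene of the 10 whose groups did not overlap. That held for 0.758% of all genes in this direction, and for 14.5% in the lower direction; nothing is read from the comparison, since the difference was known when the genes were chosen. The means were 14.22 ± 1.20 in P-bi-TAT cells and 12.36 ± 0.26 in untreated cells (SD, n = 3 each), a log2 difference of 1.86 (SE 0.65) or 3.64-fold. Without P-bi-TAT replicate 1 the difference was 2.55 (SE 0.38), or 5.87-fold.

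**Figure D1:**
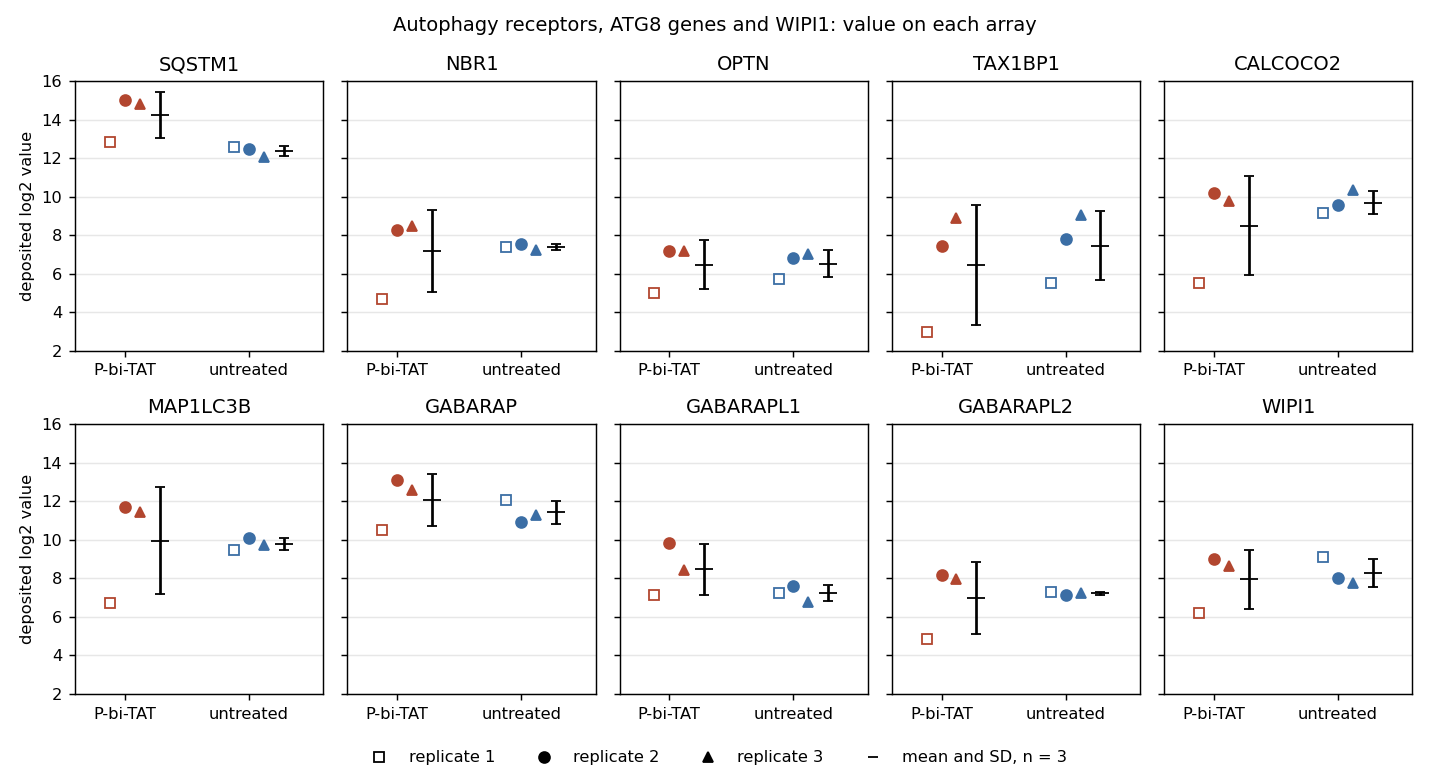
Log2 value of each of the 10 genes on each array, with P-bi-TAT cells on the left of each panel and untreated cells on the right. Points are arrays, shaped by replicate number (which was not taken to pair the arrays), and the bar is the mean with its SD (n = 3). P-bi-TAT replicate 1 (open square) was the lowest of all 6 arrays for 8 of the genes, and SQSTM1 was the gene whose groups did not overlap.

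The rank of SQSTM1 within each array separated the groups as well. Its percentile among all gene probe sets of an array was 98.9, 99.0 and 98.9 in P-bi-TAT replicates 1 to 3, against 97.4, 97.2 and 96.5 in untreated replicates 1 to 3. On this scale, which uses rank alone, P-bi-TAT replicate 1 lay with the other P-bi-TAT arrays. The percentiles of GABARAP did not overlap either, at 97.3, 97.5 and 96.8 with P-bi-TAT and 96.7, 94.0 and 94.8 in untreated arrays. Those of GABARAPL1 were also apart, at 90.1, 88.4 and 80.2 against 76.0, 77.2 and 69.9. The share of all genes apart by rank was not counted, so this is a description. After cyclic loess scaling, which removes level-dependent differences between arrays, SQSTM1 was 14.39, 14.41 and 14.28 in P-bi-TAT cells and 12.40, 12.32 and 11.99 in untreated cells.

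NBR1, the receptor related to p62 that takes part in the same aggregates, followed the general drop of replicate 1. Its values were 4.70, 8.29 and 8.49 in P-bi-TAT cells and 7.36, 7.53 and 7.25 in untreated cells. Replicate 1 was the lowest of the 6 arrays, and replicates 2 and 3 were the highest. The log2 difference was -0.22 (SE 1.00) over all arrays and 1.01 (SE 0.37) without replicate 1. Within an array, SQSTM1 minus NBR1 was 8.15, 6.74 and 6.29 in P-bi-TAT cells, against 5.20, 4.93 and 4.81 in untreated cells, a pair chosen after the values were seen. This difference averaged 2.08 higher in P-bi-TAT cells, and 1.54 higher without replicate 1, and was not tested.

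OPTN, or optineurin, which is a receptor in mitophagy and in clearance of bacteria, had 4.99, 7.20 and 7.20 in P-bi-TAT cells and 5.72, 6.81 and 7.03 in untreated cells. P-bi-TAT replicates 2 and 3 lay above the untreated arrays by a small margin. The difference was -0.06 (SE 0.73) over all arrays and 0.68 (SE 0.48) without replicate 1.

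TAX1BP1, a ubiquitin-binding receptor that works with NBR1, varied most within its groups. Its values were 2.97, 7.45 and 8.91 in P-bi-TAT cells and 5.53, 7.82 and 9.03 in untreated cells, so both groups spanned more than 3 log2 units. The value of 2.97 lay below the negative control median of that array, 3.20. The difference was -1.02 (SE 1.61) over all arrays and 0.72 (SE 0.94) without replicate 1, in each case smaller than its standard error.

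CALCOCO2, or NDP52, which links damaged mitochondria and bacteria to LC3, showed the lowest difference of the 10. It had 5.53, 10.19 and 9.76 in P-bi-TAT cells and 9.15, 9.55 and 10.33 in untreated cells. Replicate 1 was the lowest array, and replicates 2 and 3 both lay inside the untreated range. The difference was -1.18 (SE 1.21) over all arrays and 0.30 (SE 0.46) without replicate 1.

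The median difference of the 4 ATG8 genes from the untreated mean was -1.64, 1.80 and 1.18 in P-bi-TAT replicates 1 to 3, and that of the 5 receptors was -2.68, 0.67 and 1.11. MAP1LC3B encodes LC3B, whose lipid-bound form marks autophagosomes. Its values were 6.74, 11.68 and 11.43 in P-bi-TAT cells and 9.47, 10.09 and 9.72 in untreated cells. Replicate 1 was the lowest array and replicates 2 and 3 the highest. The difference was 0.19 (SE 1.28) over all arrays and 1.80 (SE 0.39), or 3.47-fold, without replicate 1. MAP1LC3B2, a near-identical copy, had its own probe set at 2.83, 5.51 and 5.86 in P-bi-TAT cells and 5.58, 5.14 and 6.52 in untreated cells, and probes of the pair may each read both transcripts.

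GABARAP, the founding member of the GABARAP branch, which acts late in autophagosome closure, had 10.53, 13.10 and 12.58 in P-bi-TAT cells and 12.08, 10.92 and 11.28 in untreated cells. Replicates 2 and 3 were again the highest arrays, and replicate 1 the lowest. The difference was 0.65 (SE 0.74) over all arrays and 1.42 (SE 0.46), or 2.67-fold, without replicate 1.

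GABARAPL1, a close relative of GABARAP, showed the highest difference of the ATG8 genes over all 6 arrays. Its values were 7.14, 9.82 and 8.43 in P-bi-TAT cells and 7.26, 7.62 and 6.79 in untreated cells. Replicate 1 lay inside the untreated range, and replicates 2 and 3 lay above it. The means were 8.46 ± 1.34 in P-bi-TAT cells and 7.22 ± 0.41 in untreated cells (SD, n = 3 each), a difference of 1.24 (SE 0.71) or 2.36-fold. Without replicate 1 it was 1.90 (SE 0.51) or 3.73-fold.

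GABARAPL2, also called GATE-16, had the lowest difference of the 4 ATG8 genes, with and without replicate 1. It had 4.85, 8.18 and 7.95 in P-bi-TAT cells and 7.30, 7.16 and 7.23 in untreated cells, which spread by an SD of only 0.07. The difference was -0.24 (SE 0.89) over all arrays and 0.83 (SE 0.37) without replicate 1. Within an array, GABARAPL1 minus GABARAPL2, another pair chosen after the values were seen, was 2.29, 1.64 and 0.48 in P-bi-TAT cells and -0.04, 0.46 and -0.44 in untreated cells, with 0.48 and 0.46 the nearest values of the groups. Of the other pairs read in this way, SQSTM1 minus CALCOCO2 did not overlap between the groups. GABARAPL1 minus GABARAP, MAP1LC3B minus GABARAPL2 and MAP1LC3B minus MAP1LC3B2 did overlap. The share of all gene pairs whose groups are apart was not counted.

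WIPI1 binds phosphatidylinositol 3-phosphate on the early autophagic membrane, and its RNA is used as a marker of autophagy induction. Its values were 6.20, 8.98 and 8.64 in P-bi-TAT cells and 9.11, 8.0 and 7.74 in untreated cells. Untreated replicate 1 was the highest of all 6 arrays, so the groups overlapped with or without P-bi-TAT replicate 1. The difference was -0.34 (SE 0.82) over all arrays and 0.53 (SE 0.49) without that replicate.

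Against the untreated mean, 1 of the 10 genes was higher in P-bi-TAT replicate 1 (SQSTM1), 9 in replicate 2 and 10 in replicate 3. The median over the genes was -2.23, 0.93 and 1.13 in replicates 1 to 3, against -1.23, -0.02 and 0.00 over all genes. Genes with an untreated mean of 6 or more, like all of the 10, had medians of 0.31 to 0.37 in replicate 2 and 0.30 to 0.42 in replicate 3, by bin of level. Replicates 2 and 3 both lay above every untreated array for 7 of the 10, which were the 4 ATG8 genes, SQSTM1, NBR1 and OPTN, while 19.1% of all genes did so. Both lay below every untreated array for 0 of the 10, beside 17.9% of all genes. Replicate 1 lay below every untreated array for 8 of the 10, all but SQSTM1 and GABARAPL1, while 75.0% of all genes did so.

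**Figure D2:**
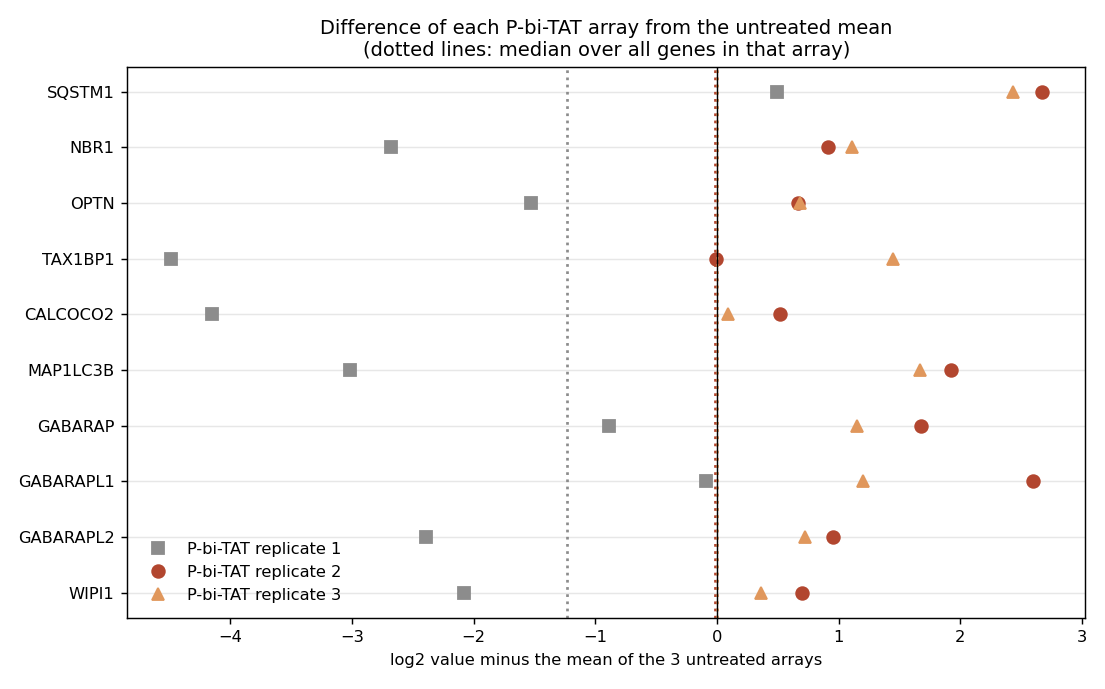
Difference of each P-bi-TAT array from the mean of the 3 untreated arrays on the log2 scale, for each of the 10 genes. Grey squares are replicate 1, red circles replicate 2 and orange triangles replicate 3, and dotted lines are the medians over all genes (-1.23, -0.02 and 0.00). Replicates 2 and 3 lie right of 0 for every gene except TAX1BP1 in replicate 2 (-0.01), and replicate 1 lies left of 0 for every gene but SQSTM1.

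Over all 6 arrays the median difference of the 10 genes was -0.14, with 4 above 0 and 6 below. The median of all genes was -0.43, and 21.3% of all genes were above 0. Without P-bi-TAT replicate 1 the median of the 10 was 0.92 with 10 of 10 above 0, beside a median of -0.01 and 49.3% of all genes above 0. By role, the median was -0.22 for the receptors and 0.42 for the ATG8 genes over all arrays, and 0.72 and 1.61 without replicate 1.

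The fit of all gene probe sets in limma called 0 of 21448 after Benjamini-Hochberg adjustment, which is 0.0%. Without adjustment, 914 of the 17687 genes (5.17%) had a limma p under 0.05, and the methods' one-way test, with the same adjustment, called 1 probe set. Of the 10 autophagy genes, SQSTM1 alone was at 1.5-fold or more with an unadjusted p under 0.05, beside 0.192% of all genes in the higher direction, and 0 of the 10 were in the lower direction, beside 4.98%. With the methods' one-way test SQSTM1 did not pass this threshold, nor with any 1 array other than P-bi-TAT replicate 1 left out. Without P-bi-TAT replicate 1 these counts were 5 of the 10, beside 9.26% of all genes, and 0 of the 10, beside 5.31%. These counts come from the contrast with which the genes were chosen and are a description.

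Rescaling the arrays changed the direction of several genes. SQSTM1, GABARAP and GABARAPL1 were above 0 in each of the 13 other settings, from 1.46 to 2.55 for SQSTM1, 0.13 to 1.46 for GABARAP and 0.56 to 1.90 for GABARAPL1. MAP1LC3B was above 0 in 11 of 13. Among the 13, the replicate number as a block cannot change a difference, since both groups hold the same numbers. NBR1 and GABARAPL2 were above 0 in 7 of 13, OPTN in 9, WIPI1 in 8, TAX1BP1 in 4 and CALCOCO2 in 2. After quantile normalization, and also after cyclic loess, every P-bi-TAT array lay above every untreated array for the same 3 genes, SQSTM1, GABARAP and GABARAPL1, beside 7.41% and 7.28% of all genes. The reverse order held for 0 of the 10 on both scales, beside 6.38% after quantile normalization and 6.48% after cyclic loess. The difference was above 0 for 8 of the 10 after quantile normalization (49.8% of all genes) and for 8 after cyclic loess (49.7%). Without P-bi-TAT replicate 1 it was above 0 for 9 of the 10 after quantile normalization (49.4%) and for 9 after cyclic loess (50.6%), with CALCOCO2 the exception on both.

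**Figure D3:**
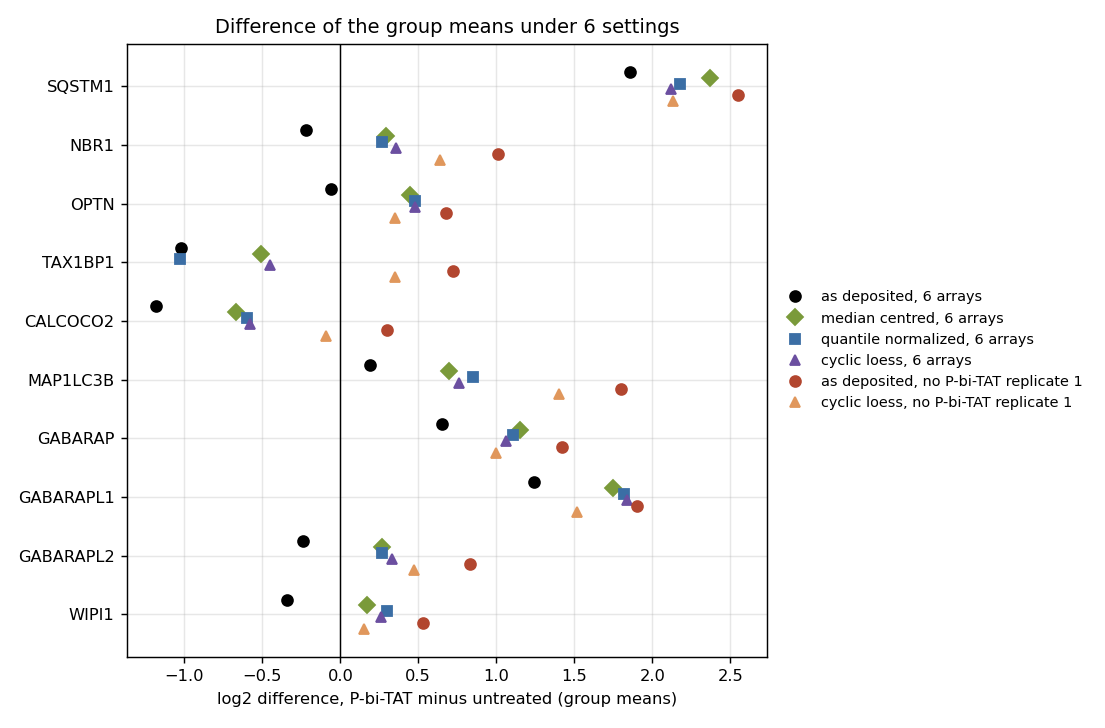
Log2 difference of the group means, P-bi-TAT minus untreated, for each gene under 6 settings, which differ in the scaling between arrays and in whether P-bi-TAT replicate 1 is used. SQSTM1, GABARAP, GABARAPL1 and MAP1LC3B lie right of 0 in all 6 settings shown, TAX1BP1 and CALCOCO2 lie left of 0 in all 4 settings that keep replicate 1, and the other 4 genes are left of 0 only in the deposited values of all 6 arrays.

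The cyclic loess values of GABARAPL1 were 9.34, 9.06 and 7.65 in P-bi-TAT cells and 6.99, 7.22 and 6.33 in untreated cells. Those of GABARAP were 12.40, 12.38 and 11.94 in P-bi-TAT cells and 11.84, 10.64 and 11.05 in untreated cells. For MAP1LC3B they were 8.89, 10.90 and 10.68 in P-bi-TAT cells and 9.17, 9.70 and 9.33 in untreated cells, so P-bi-TAT replicate 1 remained below the untreated arrays for LC3B after rescaling. On this scale the differences were 2.12 for SQSTM1, 1.84 for GABARAPL1, 1.06 for GABARAP, 0.76 for MAP1LC3B, -0.45 for TAX1BP1 and -0.58 for CALCOCO2.

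Across the 6 arrays the genes ran broadly together, as a description over arrays that share the drop of replicate 1: Pearson's r between 2 of the 10 was 0.22 to 0.99 over the 45 pairs, with a median of 0.81. The mean profile of the 10, each centred on its own mean, was -2.13, 1.22 and 1.04 in P-bi-TAT replicates 1 to 3 and -0.22, 0.02 and 0.07 in untreated replicates 1 to 3. The other genes nearest to this profile over the 6 arrays, by root mean square distance, were SARNP (0.072), ARL6IP4 (0.099), RAB11FIP5 (0.115), CFAP20 (0.119) and EIF4B (0.123). None of these 5 belongs to the autophagy lists. Without P-bi-TAT replicate 1, ARL6IP4 was the nearest, at 0.034.

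The rest of the pathway was read from lists of 75 further autophagy genes, of which 69 were measured. After adjustment limma called 0 of the 69, as did the methods' one-way test and limma with array weights. At 1.5-fold with an unadjusted p under 0.05, 0 were higher, beside 0.192% of all genes, and 2 were lower, AMBRA1 and MAP1LC3C, beside 4.98% of all genes. The median of the 69 was -0.28, with 24 above 0 (21.3% of all genes), and without P-bi-TAT replicate 1 it was 0.55, with 53 above 0 (49.3% of all genes). In that second fit 13 were higher (9.26% of all genes) and 2 lower, AMBRA1 and TFEB (5.31%), at the same threshold. In it 0 passed the adjusted threshold. The lists were chosen with earlier results of these data known, so these counts are a description.

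AMBRA1 is a scaffold that promotes the VPS34 lipid kinase complex. Its values were 9.19, 10.26 and 10.34 in P-bi-TAT cells and 12.41, 11.58 and 11.61 in untreated cells. Every P-bi-TAT array lay below every untreated array, as for 14.5% of all genes. After quantile normalization the groups overlapped, with P-bi-TAT replicate 1 at 11.31 and untreated replicates 2 and 3 at 11.29. After cyclic loess they were apart by a small margin, with P-bi-TAT replicate 1 at 11.21 and untreated replicate 2 at 11.24. The log2 difference was -1.94 (SE 0.50), with an adjusted p of 0.847 in limma. It was -1.57 without P-bi-TAT replicate 1 and -1.45 after cyclic loess, and over 16 other settings it lay between -2.14 and -1.43. MAP1LC3C, a further LC3 gene, had 2.83, 3.02 and 3.64 in P-bi-TAT cells and 4.24, 4.28 and 3.96 in untreated cells, and its P-bi-TAT mean was not above the negative controls. Its unadjusted p of 0.0457 in limma was followed by an unadjusted p under 0.05 in 3 of 15 other settings, and not in the fit without P-bi-TAT replicate 1.

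**Figure D4:**
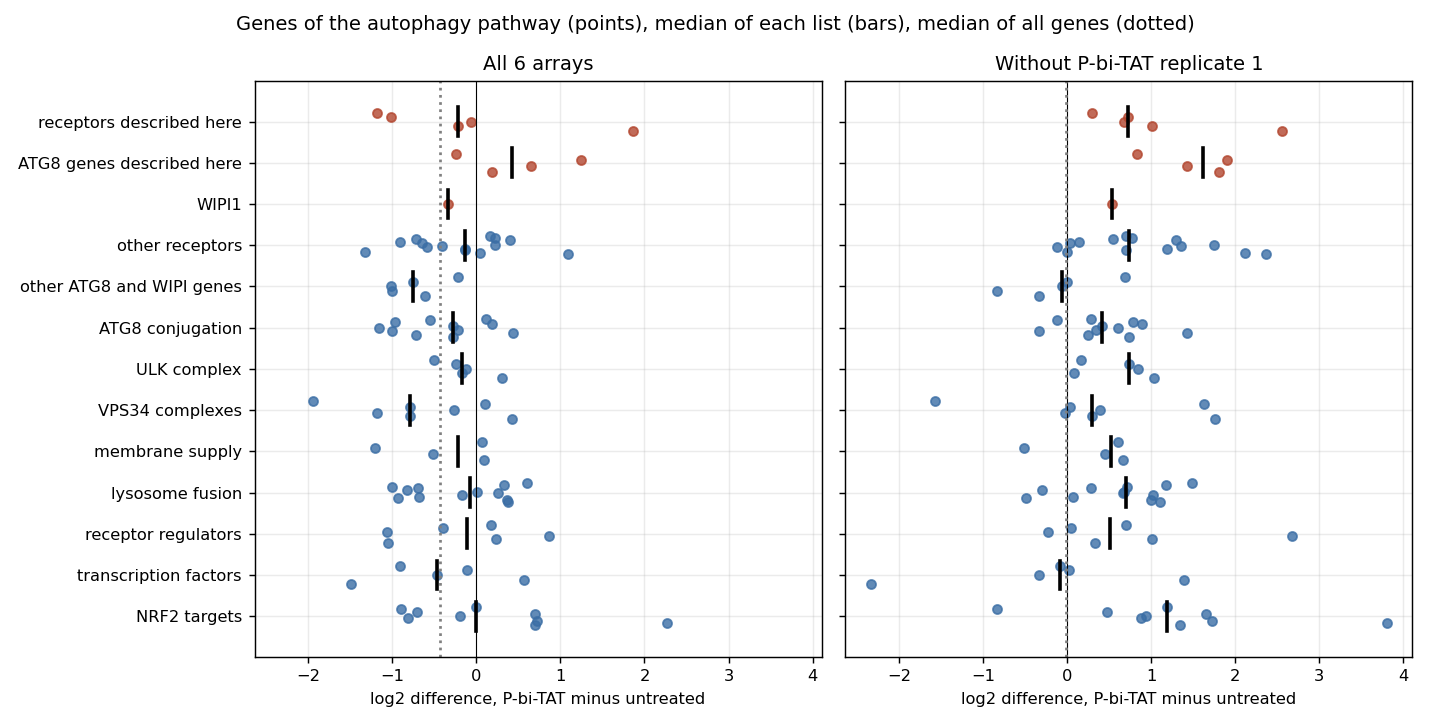
Log2 difference, P-bi-TAT minus untreated, of each measured gene of the autophagy lists and of 9 NRF2 targets, over all 6 arrays (left panel) and without P-bi-TAT replicate 1 (right panel). Points are genes, black bars list medians, dotted lines the median of all genes (-0.43 and -0.01), and red points are the 10 genes described here. The 4 ATG8 genes described here have a median of 0.42 on the left and 1.61 on the right. The ATG8 genes MAP1LC3A, MAP1LC3C and MAP1LC3B2, which are not among the 10, lie left of 0 in both panels.

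Each list is given by its median and by its lowest and highest gene over all 6 arrays, with the same value without P-bi-TAT replicate 1 in parentheses. The 14 other receptor genes, most of them for mitochondria and endoplasmic reticulum, had a median of -0.14 (0.74) and ran from -1.32 (0.00) for FUNDC1 to 1.09 (2.37) for BNIP3, both mitophagy receptors. BNIP3 had 10.33, 14.00 and 14.35 in P-bi-TAT cells and 11.55, 11.51 and 12.35 in untreated cells. The 5 other ATG8 and WIPI genes had a median of -0.75 (-0.06), from -1.01 (-0.06) for MAP1LC3B2 to -0.22 (0.69) for WDR45B. Above 0 were 0 of the 5 (2 of 5, WDR45B and WIPI2), beside 21.3% of all genes (49.3%). MAP1LC3A was at -0.61 (-0.33), with neither group mean above the negative controls. WIPI2, the closest relative of WIPI1, had 8.13, 10.62 and 10.17 in P-bi-TAT cells and 11.26, 9.95 and 9.97 in untreated cells, a difference of -0.75 (0.00).

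The 11 genes of ATG8 conjugation, which process LC3 and attach it to lipid, had a median of -0.28 (0.41), from -1.16 (0.61) for ATG5 to 0.44 (1.43) for ATG4B, the protease that trims ATG8 proteins. The ULK kinase complex that starts autophagy had a median of -0.17 over 5 genes (0.74), from -0.50 (0.17) for ATG101 to 0.31 (1.03) for ULK1. The VPS34 complexes that make phosphatidylinositol 3-phosphate had -0.79 over 7 genes (0.30), from -1.94 (-1.57) for AMBRA1 to 0.42 (1.76) for BECN1. Genes of membrane supply had -0.22 over 4 genes (0.52), from -1.20 (-0.51) for ATG2B, a lipid transfer protein, to 0.09 (0.67) for ATG9A, the scramblase of seed vesicles. Genes of fusion with the lysosome had -0.08 over 12 genes (0.69), from -1.0 (0.71) for VPS41 of the HOPS tether to 0.60 (1.49) for the GTPase gene RAB7A. FUNDC1, MAP1LC3B2, ATG5, ATG101 and VPS41 were the lowest of their lists with replicate 1 and not without it, and ATG5, ATG101 and VPS41 were then above 0.

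Genes that regulate the receptors had a median of -0.11 over 6 genes (0.52), from -1.06 (-0.23) for the ubiquitin ligase TRAF6 to 0.86 (2.67) for NFE2L2, which encodes NRF2. NFE2L2 had 3.80, 8.70 and 9.76 in P-bi-TAT cells and 4.31, 7.47 and 7.90 in untreated cells. Its replicate 1 was low in both groups. The difference was 0.86 (SE 1.68) over all arrays and 2.67 (SE 0.99), or 6.37-fold, without P-bi-TAT replicate 1. TBK1, the kinase that phosphorylates OPTN and p62, had 4.70, 8.41 and 9.28 in P-bi-TAT cells and 7.90, 8.75 and 8.90 in untreated cells, a difference of -1.05 (0.33).

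The 5 transcription factors known to drive autophagy genes had a median of -0.47 (-0.09) and include TFEB and TFE3, relatives that read the same E-box. TFEB had 4.81, 2.44 and 2.10 in P-bi-TAT cells and 4.91, 4.98 and 3.92 in untreated cells. Replicate 1 lay inside the untreated range, and replicates 2 and 3 lay below the negative control medians of their arrays. The untreated mean, 4.60, was above the controls. The TFEB difference was -1.49 (SE 0.78) over all arrays and -2.33 (SE 0.46) without replicate 1, the lowest of the 5 genes in both. Values below the controls do not set its size. TFE3 had 5.29, 8.09 and 7.44 in P-bi-TAT cells and 6.44, 6.24 and 6.44 in untreated cells, with differences of 0.57 (SE 0.74) over all arrays and 1.39 (SE 0.39) without replicate 1.

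SQSTM1 is also read beside other NRF2 targets. The median of 9 such genes was 0.00 over all arrays, with 5 above 0 and 4 below (21.3% of all genes above 0). Without replicate 1 it was 1.19, with 8 above 0 and 1 below (49.3% of all genes above 0). At 1.5-fold with an unadjusted limma p under 0.05, 0 were higher over all arrays (0.192% of all genes) and 4 without replicate 1 (9.26%). In the lower direction 0 passed in both fits (4.98% and 5.31%). This list too was chosen with earlier results of these data known, so its counts are a description. The lowest of the 9, ME1, had a P-bi-TAT mean that was not above the negative controls. The highest was HMOX1, which encodes heme oxygenase, at 2.27 (SE 1.22) over all arrays and 3.80 (SE 0.39), or 13.9-fold, without replicate 1. Its adjusted p in limma was 0.847 over all arrays and 0.0988 without replicate 1, and it ran from 0.0393, with array weights, to 1.0 over 16 other settings. HMOX1 had 8.07, 12.79 and 12.48 in P-bi-TAT cells and 8.81, 8.55 and 9.15 in untreated cells, so replicate 1 was the lowest of the 6 arrays in the deposited values. After cyclic loess HMOX1 was 10.21, 12.01 and 11.73 in P-bi-TAT cells and 8.51, 8.16 and 8.77 in untreated cells. The groups did not overlap on that scale, which held for 7.28% of all genes in this direction.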

How the data were processed

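Total RNA of U87MG cells (3 arrays with P-bi-TAT and 3 untreated) was hybridized to Affymetrix Clariom S arrays. The authors deposited normalized log2 values per probe set. Per the submitters' processing notes, Transcriptome Analysis Console 4.0.1.36 with RMA was used, whereas the methods name a signal-space form of RMA. Which of them made these values was not settled. The genome build is not given in the sources used here. No array counts reads, so the number of arrays limits the precision.

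Of the probe sets, 21448 for genes were kept and 2903 controls left out. GEO's platform annotation gave 17709 of them 1 symbol, and 17687 genes resulted, each read from its brightest probe set over all arrays. Differences, P-bi-TAT minus untreated, and standard errors came from limma 3.58.1 (R 4.3.3; lmFit and eBayes, two-sided), with Benjamini-Hochberg adjustment over all gene probe sets and a threshold of 0.05. The code was tested on simulated data. The fits assume no pairing, which the labels do not settle. Deviations of same-numbered arrays correlated 0.3044, 0.0361 and 0.3331 for numbers 1 to 3. Those of arrays with unlike numbers correlated -0.3784 to 0.1497.

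The members and lists were chosen with earlier results of these data known. Named were the 10 genes, the lowest and highest gene of each list, the list genes at 1.5-fold with an unadjusted p under 0.05 and the 5 genes nearest in profile. TBK1 and WIPI2 were named beside that rule, after their values were seen. Of the 75 listed autophagy genes, 6 were not analysed here. Promoters came from RefSeq (GRCh38.p14). Alternatives were each array left out, a block, other scalings, a filter, array weights, a trend in the variance and the methods' one-way test. Protein sequences were not used here.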

Additional observations from a re-analysis of the deposited data

How the results depend on the processing

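The count of gene probe sets past the adjusted threshold was 0 in the limma fit as reported, 9 with array weights and 1 with the methods' one-way test, and 0 under the other settings run. At 1.5-fold with an unadjusted p under 0.05, 43 probe sets were higher and 1112 lower as reported. The higher count was 2213 with array weights, 476 after median centring, 799 after quantile normalization, 943 after cyclic loess, 10 with the dimmest 40 percent left out, 1309 with cyclic loess and no P-bi-TAT replicate 1, and 1150 with quantile normalization and no P-bi-TAT replicate 1. The lower count was 2150 with array weights, 269 after median centring, 669 after quantile normalization and 242 with the dimmest 40 percent left out. With 1 array left out the higher count was 8 to 1883, the highest without P-bi-TAT replicate 1, and the lower count 707 to 1185. Cyclic loess and both settings that join a scaling with the loss of P-bi-TAT replicate 1 were added after seeing the data.

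The replicate number as a block called 0 probe sets, with 36 higher and 950 lower at the unadjusted threshold. Both groups hold the same replicate numbers, so the block cannot change a difference of group means. The medians of the 10 genes and of the other 69 therefore stayed at -0.14 and -0.28. The numbers were not taken to pair the arrays. With 1 array left out the median of the 10 genes was -0.73 to 0.92 and that of the other 69 was -0.75 to 0.55, in each case highest without P-bi-TAT replicate 1. With array weights, which gave that array 0.1095, the medians were 0.87 and 0.40. The median of the 10 was 0.39 after quantile normalization and 0.42 after cyclic loess, above 0 where the deposited values gave -0.14. Each group has 3 arrays. A signal near the negative controls (means of 3.23 in P-bi-TAT cells and 3.81 in untreated cells) sets no level for MAP1LC3C or TFEB with P-bi-TAT.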
